A study of Mus musculus with 4 samples.

Results

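The *Hox* genes were examined in immortalized tail tip fibroblasts (TTF) of the mouse. They were taken from the expression matrix by symbol, as every row named *Hox* followed by a cluster letter from a to d and a paralog number. This gave 39 protein-coding genes of the 23924 genes listed, and left out the antisense and other non-coding transcripts of the clusters. The cells came from male littermates of the C57BL/6J-TgBAC8-2087 line. The transgenic group (TG, 2 libraries) was Tg2087/+, hemizygous for an autosomal insertion of *Xic* sequence with *Xist*, and the wildtype group (WT, 2 libraries) was +/+. Both groups were immortalized with Simian virus 40 large T and were tetraploid, so every value describes transformed cells in culture, and the age of the animals was not given in the sources used here. No source said whether a genotype's libraries stem from different animals or cultures, so the p-values measure the spread between libraries, which may be technical. The values are FPKM, the fragments of a gene divided by its length and by the size of the library, which can be compared between genes because they are divided by gene length.

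The mammalian *Hox* genes lie in 4 clusters, *HoxA* to *HoxD*, and encode homeodomain transcription factors numbered in 13 paralog groups by their order along a cluster. In the embryo, low-numbered genes act towards the head and high-numbered genes towards the tail and the ends of the limbs. Adult fibroblasts keep a *Hox* pattern that reflects the body site they came from. HOX proteins bind DNA with TALE cofactors of the PBX, MEIS and PREP families, and silent *Hox* clusters are covered by Polycomb complexes.

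The whole reads behind the FPKM values could be worked out up to a whole factor common to all libraries. With the factor chosen by annotated gene lengths, library totals ran from 9465712 reads in WT 1 to 14639946 in WT 2, which was sequenced 1.55 times as deeply. *Xist*, the transgene's product, was at 0 and 0.108 FPKM in WT 1 and WT 2, and at 2.31 and 2.28 in TG 1 and TG 2. Of 12 fibroblast markers, 10 passed the filter, led by *Vim*, an intermediate filament gene, with a mean of 2325 FPKM. None was called by limma, and voom called 1. At an unadjusted p under 0.05 there were 5, against 19.6% of all tested genes. Of these, *Pdgfrb*, *Fn1*, *Col1a1* and *Col1a2* were lower in TG, with log2 fold changes of -0.96, -0.87, -0.82 and -0.64. *Pdgfra* was higher (1.08) and reached the filter only through TG, with a WT mean of 0.203 FPKM. The median log2 fold change of the list was -0.33, against 0.07 for all tested genes. The summed level of the fibroblast markers was 6650 and 6381 FPKM in WT against 5979 and 5709 in TG. The part of these marker differences in the *Hox* values was not tested. However, *Lum*, a matrix proteoglycan gene, was listed at 0 in all 4 libraries, and *Dcn*, another one, reached at most 0.878 FPKM. Among the markers of other cell types, *Krt5*, *Krt14*, *Ptprc*, *Myod1*, *Sox10* and *Adipoq* were listed at 0 in every library. The summed endothelial markers were between 0.0360 and 0.603 FPKM, the summed keratinocyte markers between 1.92 and 3.15 FPKM and the summed adipocyte markers between 0 and 0.306 FPKM. The immune, muscle and nerve lists reached at most 12.3, 11.5 and 35.6 FPKM, mostly from *Cd68*, *Acta1* and *Tubb3*. The summed muscle markers were 11.5 and 9.99 FPKM in WT and 5.45 and 5.37 in TG (*Acta1* log2 fold change -0.95, limma, adjusted p = 0.0374). In the nerve list, *Mitf* had 0.504 and 0.421 FPKM in WT and 1.87 and 2.25 in TG (log2 fold change 1.41, limma, adjusted p = 0.0592). *Sox9*, a chondrocyte regulator, was the one marker called in TG, with 1.90 and 2.44 FPKM in WT and 7.11 and 9.05 in TG (log2 fold change 1.68, limma with Benjamini-Hochberg adjustment, adjusted p = 0.00671). In the same list, *Col2a1*, which defines cartilage, stayed at or below 0.302 FPKM, and 3 genes were listed at 0. *Runx2* had 7.14 and 8.14 FPKM in WT and 4.83 and 5.28 in TG, and *Acan* had at most 1.09. The summed chondrocyte and bone markers were 9.44 and 11.1 FPKM in WT and 12.5 and 15.6 in TG. The part of *Sox9* in any *Hox* difference was not tested. In bulk RNA, fewer cells with a transcript and less transcript per cell cannot be told apart.

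Of the 39 *Hox* genes, 26 were expressed, defined as a mean of at least 0.5 FPKM over the 4 libraries. Another 6 were low, with a mean above 0 but under 0.5 FPKM, and 7 were listed at 0 in every library. The expressed genes came from 3 of the 4 clusters. *HoxA* had 10 of its 11 genes expressed, *HoxB* 9 of 10 and *HoxC* 7 of 9, but *HoxD* had 0 of 9. The highest levels in *HoxB* and *HoxC* were at high paralog numbers, and *Hoxb13* was the highest *Hox* gene in each library. The rise was not even, as *Hoxb5* (mean 2.34 FPKM) was below *Hoxb2* (7.17) and *Hoxc13* (25.2) below *Hoxc12* (33.5). The expressed *Hox* genes had a median of 5.87 FPKM, against 10.4 FPKM for all 11524 genes that passed the same filter.

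**Figure D1:**
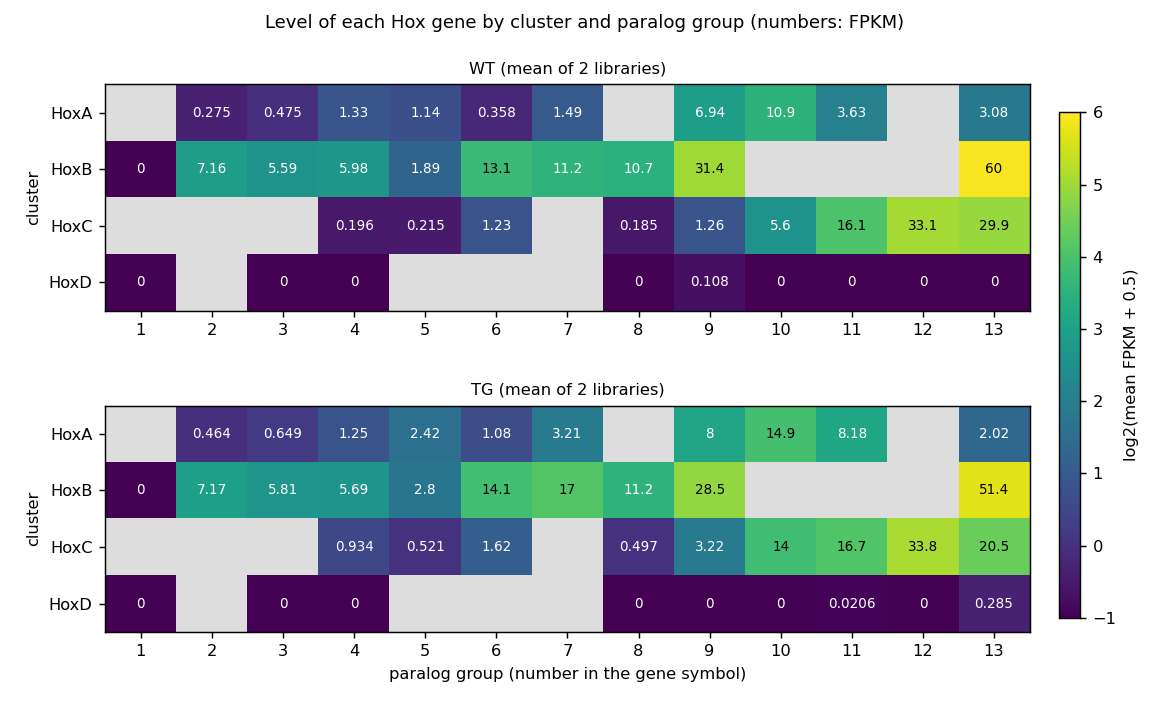
Mean FPKM of each *Hox* gene in WT (upper panel) and TG (lower panel), with the cluster in rows and the paralog group in columns. Colour gives log2(mean FPKM + 0.5), the printed number is the mean FPKM of 2 libraries, and grey squares have no gene or no value shown. The *HoxD* row is at or near 0 in both genotypes, and *Hoxb13* has the highest value in both, 60.0 in WT and 51.4 in TG.

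Because a paralog group can have an expressed member in *HoxA* and a silent one in *HoxD*, the upstream sequences of 2 such pairs are shown, for groups 13 and 10. They are the 250 bases before the transcription start in RefSeq (GRCm38.p6), written 5′ to 3′ on the strand of the gene. The mean levels over the 4 libraries were 2.55 FPKM for *Hoxa13*, 0.142 for *Hoxd13*, 12.9 for *Hoxa10* and 0 for *Hoxd10*. *Hoxa13* is at chr6:52260881-52261130 on the minus strand, *Hoxd13* at chr2:74667975-74668224 on the plus strand, *Hoxa10* at chr6:52240855-52241104 on the minus strand and *Hoxd10* at chr2:74691641-74691890 on the plus strand. For *Hoxa10* the first of 2 listed starts was taken, and the listed start of *Hoxd10* lies inside the span of its annotated gene. Capitals mark matches to TATAAA on either strand.
Hoxa13: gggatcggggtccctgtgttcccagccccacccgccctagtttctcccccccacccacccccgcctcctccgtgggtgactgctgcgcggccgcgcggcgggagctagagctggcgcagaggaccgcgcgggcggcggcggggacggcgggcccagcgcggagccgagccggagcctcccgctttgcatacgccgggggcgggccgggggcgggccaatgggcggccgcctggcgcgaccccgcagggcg
Hoxd13: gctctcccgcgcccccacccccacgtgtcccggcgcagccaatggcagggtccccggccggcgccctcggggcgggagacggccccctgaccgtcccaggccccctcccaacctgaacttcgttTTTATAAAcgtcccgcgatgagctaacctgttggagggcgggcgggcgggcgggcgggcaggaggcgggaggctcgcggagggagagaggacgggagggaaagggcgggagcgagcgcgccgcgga
Hoxa10: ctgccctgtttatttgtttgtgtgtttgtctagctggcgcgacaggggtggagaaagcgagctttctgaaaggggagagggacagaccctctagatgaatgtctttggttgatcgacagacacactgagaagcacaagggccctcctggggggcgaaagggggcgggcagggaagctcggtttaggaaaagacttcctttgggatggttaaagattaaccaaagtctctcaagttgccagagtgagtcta
Hoxd10: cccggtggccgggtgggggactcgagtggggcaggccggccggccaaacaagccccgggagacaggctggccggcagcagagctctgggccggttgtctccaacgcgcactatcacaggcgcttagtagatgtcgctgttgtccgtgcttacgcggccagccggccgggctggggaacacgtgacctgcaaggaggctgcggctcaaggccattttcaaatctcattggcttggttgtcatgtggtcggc
In group 13 the promoter of the near-silent gene was also rich in CpG. The *Hoxa13* stretch had 80.0% G and C with 35 CpG, and that of *Hoxd13* had 74.4% with 31 CpG and 2 overlapping matches to TATAAA, one on each strand. *Hoxa10* had 51.6% G and C with 7 CpG, and *Hoxd10* 65.6% with 20 CpG, so in group 10 the silent member was the richer one. Promoter sequences were matched for 22 of the 39 genes, 11 of them expressed. None was matched for *Hoxb9*, *Hoxb13* or *Hoxc10* to *Hoxc13*, and the 11 others included all 9 *HoxD* genes. The median G and C content was 58.0% in the 11 expressed genes and 55.6% in the 11 others, against 60.4% in 9196 promoters of tested genes and 52.0% in all 27025 promoters. The median ratio of observed to expected CpG was 0.760 in the expressed genes and 0.490 in the others, unlike the order in the group 10 pair. It was 0.752 in promoters of tested genes and 0.378 in all promoters. The part of the promoter sequence in the levels was not tested.

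The 22 promoters were searched on both strands for TATAAA, for TTTAT followed by any base and G, a motif bound by proteins of the high paralog groups, and for TGATNNAT, the joint motif of PBX and HOX proteins. TATAAA was found in 3 of them (*Hoxb8*, *Hoxd4* and *Hoxd13*), the TTTAT motif in 2 (*Hoxb8* and *Hoxd4*) and TGATNNAT in 3 (*Hoxa2*, *Hoxb1* and *Hoxb8*). The shares were 13.6%, 9.09% and 13.6% of the *Hox* promoters, against 12.97%, 10.2% and 7.91% of all promoters and 6.15%, 5.97% and 3.20% of the promoters of tested genes, and each rests on 2 or 3 genes. The *Hoxb8* promoter held all of the motifs, with 3 matches to the TTTAT motif and 2 to TATAAA. The TTTAT motif and TATAAA can share bases, and these matches are letters only, not binding sites.

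The *HoxD* cluster (chr2:74668225-74765142 on GRCm38) was at or near 0 throughout. Its 9 genes summed to 0.217 and 0 FPKM in WT, and to 0.387 and 0.224 in TG, compared with 145.3, 148.8, 141.0 and 146.5 FPKM for *HoxB*. *Hoxd1*, *Hoxd3*, *Hoxd4*, *Hoxd8*, *Hoxd10* and *Hoxd12* were listed at 0 in all 4 libraries. A count of 0 allows up to 3 reads per library, which for these genes and *Hoxb1* corresponds to between 0.0507 and 0.190 FPKM, so a level below that was not detectable at this depth. These limits and the read counts below cover counting error only, and they rest on the library totals chosen above.

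The 3 *HoxD* genes above 0 rested on few reads, whose numbers were set with the annotated gene length because the ratios between libraries leave a whole factor undecided. *Hoxd9*, a gene of the limb and trunk, had 4 reads in WT 1 and 0 in the other libraries. *Hoxd11*, a gene of the forearm, had 1 read in TG 1 alone. *Hoxd13*, which patterns digits and external genitalia, had 0 reads in both WT libraries, 10 in TG 1 and 6 in TG 2, or 0.346 and 0.224 FPKM in the TG libraries. Both TG libraries were therefore above both WT libraries. The TG mean was 2.65 times the mean WT floor of 3 reads, with no counting limit set on the TG reads. *Hoxd13* did not pass the filter. In the fit over all genes above 0 its adjusted p was 0.203 (limma, Benjamini-Hochberg).

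The neighbourhood of *HoxD* was not uniformly silent. *Mtx2*, a mitochondrial import gene 60.7 kb beyond *Hoxd1*, had 12.1 and 12.8 FPKM in WT and 17.8 and 17.4 in TG (log2 fold change 0.48, limma, adjusted p = 0.195). *Lnpk*, an endoplasmic reticulum gene 88.8 kb from *Hoxd13*, had a mean of 2.60 FPKM. Between *Lnpk* and the cluster, *Evx2*, a homeobox gene 6.70 kb from *Hoxd13*, was listed at 0, as were the 4 non-coding genes inside the cluster, *Gm38462*, *Hoxd3os1*, *Haglr* and *Gm14424*. *Mtx2*, *Lnpk* and the non-coding genes named here and below are no members of the set and are given for their position, and some were picked after their values were seen.

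*HoxB* (chr11:96194316-96368254) was the most abundant cluster, with 58.0% and 53.0% of the summed *Hox* FPKM in WT 1 and WT 2 and 50.5% and 52.5% in TG 1 and TG 2. *Hoxb13*, which sets the caudal end of the body axis and is a marker of tail and prostate, had 72.2 and 47.8 FPKM in WT, against 47.3 and 55.4 in TG. Its lowest library was above the highest library of every other *Hox* gene, 37.8 FPKM, and its mean of 55.7 FPKM stood at the 86.2 percentile of the tested genes. Values in this order, WT 1, WT 2, TG 1 and TG 2, follow for the other genes. *Hoxb9*, a gene of the rib cage, followed in the cluster with 25.0, 37.8, 29.0 and 28.0 FPKM. The libraries of the genotypes overlapped for both genes.

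The middle of *HoxB* formed a second tier. *Hoxb6* had 9.65, 16.6, 17.4 and 10.8 FPKM and *Hoxb8*, a gene known for keeping blood progenitors dividing, 8.30, 13.03, 13.5 and 8.91 FPKM. In both, WT 2 and TG 1 were high and WT 1 and TG 2 low. *Hoxb7* had 10.1, 12.4, 15.1 and 19.0 FPKM, with both TG libraries above both WT libraries. The head-ward genes were lower: *Hoxb2* had 7.85, 6.46, 6.35 and 8.001 FPKM, *Hoxb3* 5.53, 5.64, 4.46 and 7.16 FPKM and *Hoxb4*, a gene of blood stem cells, 5.29, 6.67, 4.72 and 6.66 FPKM. *Hoxb5* was the lowest expressed gene of the cluster at 1.39, 2.39, 3.17 and 2.43 FPKM, and *Hoxb1*, a hindbrain gene, was listed at 0. GENCODE exons of *Hoxb3* share 52.9% of their bases with the opposite-strand transcript *Hoxb3os*, and those of *Hoxb2* share 27.3% with it. The strand setting of the authors' counting was not stated, so reads there cannot be assigned to one of the partners.

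*HoxC* (chr15:102921131-103036856) had a steeper profile. The 4 genes at its caudal end, *Hoxc13* to *Hoxc10*, were all above 4 FPKM in every library, and the 5 others were all under 5. *Hoxc12* had 33.5, 32.6, 31.9 and 35.8 FPKM, with an SD of 0.655 in WT and 2.78 in TG (n = 2 each). *Hoxc13*, a regulator of hair and nail keratins, had 23.0, 36.8, 23.4 and 17.7 FPKM, and *Hoxc11* had 12.96, 19.2, 19.3 and 14.04 FPKM. Within the order of levels, *Hoxc12*, *Hoxb9* and *Hoxc13* had overlapping libraries, and so did *Hoxc13* and *Hoxc11*. *Hoxc10*, a gene of lumbar motor neurons and hindlimb, had 4.73 and 6.47 FPKM in WT and 16.2 and 11.8 in TG. Towards the head, *Hoxc9* had 0.740, 1.78, 2.40 and 4.03 FPKM, *Hoxc6* 1.46, 0.994, 1.10 and 2.13 FPKM and *Hoxc4* 0.0576, 0.335, 0.686 and 1.18 FPKM. *Hoxc8*, a gene of the brachial spinal cord, was low with 0, 0.369, 0.302 and 0.692 FPKM, and *Hoxc5* with 0.246, 0.185, 0.552 and 0.490 FPKM.

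*HoxA* (chr6:52155367-52260880) was expressed along almost its whole length at lower levels, with sums of 28.1 and 33.4 FPKM in WT, against 42.3 and 44.6 in TG. Its highest gene was *Hoxa10*, a gene of the uterus and lumbar spine, with 9.39, 12.5, 14.6 and 15.2 FPKM. *Hoxa9*, known from blood progenitors and leukaemia, had 6.76, 7.12, 8.58 and 7.42 FPKM, and *Hoxa11*, a gene of the forearm, kidney and uterus, had 4.10, 3.16, 5.84 and 10.5 FPKM. *Hoxa13*, the autopod and genital gene, was lower with 2.81, 3.34, 2.02 and 2.02 FPKM, so the caudal end did not hold the highest level as it did in *HoxB*. *Hoxa7* had 1.47, 1.52, 3.77 and 2.66 FPKM, and *Hoxa5*, which acts in the neck and lung, 1.41, 0.870, 2.33 and 2.51 FPKM.

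The remaining *HoxA* genes were close to the filter. *Hoxa4* had 1.07, 1.58, 1.52 and 0.982 FPKM. *Hoxa6* had 0.100, 0.617, 0.478 and 1.67 FPKM, and *Hoxa3*, a gene of the pharyngeal arches, 0.265, 0.685, 1.26 and 0.0378 FPKM. *Hoxa2*, the gene of the second arch, was low with 0.130, 0.420, 0.928 and 0 FPKM. For *Hoxa3* and *Hoxa2* the TG libraries stood farthest apart of all 4, with TG 1 highest and TG 2 lowest. Exons of *Hoxa11* share 35.0% of their bases with *Hoxa11os* on the opposite strand, which had a mean of 16.9 FPKM against 5.91 for *Hoxa11*, and those of *Hoxa7* share 20.4% with *Hoxaas3* at 0.0747 FPKM.

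**Figure D2:**
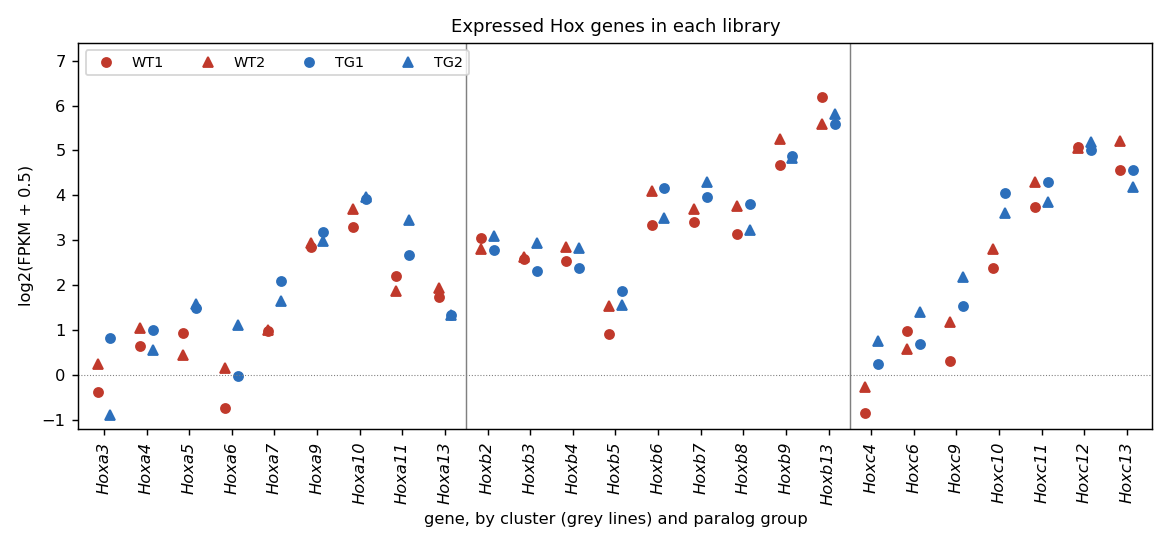
Log2(FPKM + 0.5) of 25 expressed *Hox* genes in each library, WT in red and TG in blue, replicate 1 as circles and replicate 2 as triangles. Genes are ordered by cluster and paralog group. The highest points of *HoxB* and *HoxC* are at high group numbers, without an even rise. *Hoxc10* is the gene of *HoxC* whose red and blue points stand farthest apart among those above 4 FPKM in every library.

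By paralog group, the caudal groups 9 to 13 held 78.1% and 74.2% of the summed *Hox* FPKM in WT 1 and WT 2 and 71.9% and 72.4% in TG 1 and TG 2. Groups 5 to 8 held 13.6% and 17.4% in WT and 20.7% and 18.4% in TG, and groups 1 to 4 between 7.48% and 9.17%. Group 13 alone held 39.2% and 31.3% in WT and 26.1% and 27.0% in TG, from *Hoxb13*, *Hoxc13* and *Hoxa13*. Group 10, *Hoxa10* and *Hoxc10*, summed to 14.1 and 18.9 FPKM in WT, against 30.7 and 27.0 in TG. Of the 13 groups, both TG libraries were above both WT libraries in groups 5, 7, 10 and 11, and both were below in group 13. Among single genes, 30.2% of all tested genes had both TG libraries above and 20.3% had both below. The total over all *Hox* genes was 250, 281, 279 and 279 FPKM, so TG lay within the WT range. These sums are descriptions without a test.

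**Figure D3:**
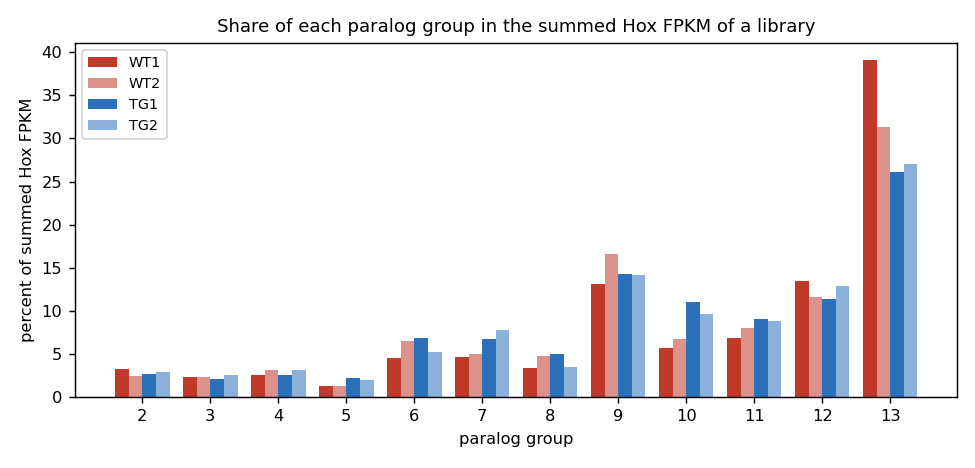
Percent of the summed *Hox* FPKM of each library held by each of paralog groups 2 to 13, WT in red and TG in blue, with the lighter bar for replicate 2. Group 13 is the tallest in every library and is 39.2% and 31.3% in WT against 26.1% and 27.0% in TG.

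TG was then compared with WT, to ask whether the *Xic* transgene went with a different *Hox* pattern. The paper places the transgene on chromosome 1, and the *Hox* clusters lie on chromosomes 6, 11, 15 and 2. The number of animals and lines was not given, so genotype cannot be told apart from animal, tail tip sample or immortalized line. By limma on log2(FPKM + 0.5), a gene was called where the Benjamini-Hochberg adjusted p was under 0.01 and the log2 fold change was 1 or more in either direction. None of the 26 expressed *Hox* genes was called (0 of 26), where 0.607% of all 11524 tested genes were called higher and 0.469% lower, 70 and 54 genes, or 47 and 55 with quantile normalization. The voom method on recovered reads also called 0. At an unadjusted p under 0.05, 7 *Hox* genes passed, all higher in TG (*Hoxa5*, *Hoxa7*, *Hoxa11*, *Hoxb7*, *Hoxc4*, *Hoxc9* and *Hoxc10*), where 12.7% of all tested genes were higher at that level and 19.6% differed in either direction. *Hoxc4*, *Hoxa6* and *Hoxa3* reached the filter's mean only through TG (WT means of 0.196, 0.358 and 0.475 FPKM), so that their direction was in part set by the filter, and *Hoxc4* is among the 7. With 2 libraries in each genotype, the smallest p that an exact permutation test allows is 0.333.

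*Hoxc10* (chr15:102966796-102971898) had the largest log2 fold change on the log2(FPKM + 0.5) scale and the smallest adjusted p of the *Hox* genes. By the plain ratio of means, *Hoxc4* (4.76-fold), *Hoxa6* (3.003-fold) and *Hoxc9* (2.55-fold) were above it, and *Hoxc4* and *Hoxa6* were also above it by voom, with log2 fold changes of 2.17 and 1.40 against 1.22. *Hoxc10* rested on 79 and 167 reads in WT and 340 and 230 in TG, and its level was 5.60 ± 1.23 FPKM in WT and 13.98 ± 3.10 in TG (SD, n = 2 each). The TG mean was 2.50-fold the WT mean, and the lowest TG library was above the highest WT library. The log2 fold change was 1.25 with an SE of 0.25 and a 95% interval from 0.70 to 1.79 (limma, adjusted p = 0.0203). It was the one *Hox* gene past an adjusted p of 0.05 whose log2 fold change reached 1, where 1.99% of all tested genes were higher by that rule. The adjusted p was 0.126 without WT 1, 0.111 without WT 2 and 0.114 without TG 1, and over all alternatives it ranged from 0.0119 to 0.126, with log2 fold changes from 1.03 to 1.46. Exons of *Hoxc10* share 8.70% of their bases with *Hoxc5* on the same strand.

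Other *Hox* genes with the TG libraries above the WT libraries were spread over 3 clusters. In total this held for 10 of the 26 expressed genes, 38.5%, where 30.2% of all tested genes did so. They were *Hoxa5*, *Hoxa7*, *Hoxa9*, *Hoxa10*, *Hoxa11*, *Hoxb5*, *Hoxb7*, *Hoxc4*, *Hoxc9* and *Hoxc10*, of which *Hoxc4* was tested only because of its TG level. The median log2 fold change of the 26 genes was 0.15, against 0.07 for all tested genes. By voom it was 0.05, with 13 of 26 genes above 0, against 0.01 for all tested genes. With quantile normalization it was 0.06 against -0.01. With a library left out it was 0.11 against 0.07 (WT 1), 0.37 against 0.06 (WT 2), 0.24 against 0.04 (TG 1) and 0.28 against 0.10 (TG 2). In the opposite direction, *Hoxa13* alone had both TG libraries below both WT libraries (1 of 26), where 20.3% of all tested genes did.

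On the log2(FPKM + 0.5) scale, which sets this order, genes of *HoxC* and *HoxA* came next. *Hoxc9* had a log2 fold change of 1.11 (SE 0.39, 95% interval 0.26 to 1.96) and an adjusted p of 0.143 by limma. *Hoxc4* had 1.05 (SE 0.47, 0.01 to 2.09) and an adjusted p of 0.252 by limma, on 1 and 9 reads in WT and 15 and 24 in TG, and it passed the filter only through TG. *Hoxa11* had 1.03 (SE 0.30, 0.37 to 1.68) and an adjusted p of 0.0847 by limma. The intervals of these genes include changes from small to more than 2-fold. *Hoxa11os*, which shares exons with *Hoxa11*, had a smaller log2 fold change of 0.29. *Hoxa7*, *Hoxa5* and *Hoxb7* had log2 fold changes of 0.88, 0.85 and 0.58, with adjusted p of 0.144, 0.192 and 0.170 by limma.

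The expressed genes of group 13, which led the *Hox* levels, had lower means in TG, but none passed the test. *Hoxc13* had a log2 fold change of -0.51 (95% interval -1.05 to 0.04, limma, adjusted p = 0.288), with WT 2 high and WT 1 within the TG range. *Hoxa13* had -0.50 (-1.14 to 0.13, limma, adjusted p = 0.372), and *Hoxb13* -0.20 (-0.68 to 0.29, limma, adjusted p = 0.677). For *Hoxb13* the high value was WT 1 alone, and without it the log2 fold change was 0.10. *Hoxc12* differed least of the 4 highest *Hox* genes, with a log2 fold change of 0.03 and an interval from -0.37 to 0.43. The other 15 expressed *Hox* genes had log2 fold changes from -0.11 in *Hoxb9* to 0.83 in *Hoxa6*.

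*Hox* genes differed more between libraries of one genotype than the tested genes as a whole. The median absolute log2 difference between the WT libraries was 0.45 for the 26 genes and 0.24 for all tested genes, and between the TG libraries it was 0.44 and 0.23. The *Hox* genes also had lower levels than the tested genes, 5.87 against 10.4 FPKM at the median, and the part of the level in this spread was not tested.

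**Figure D4:**
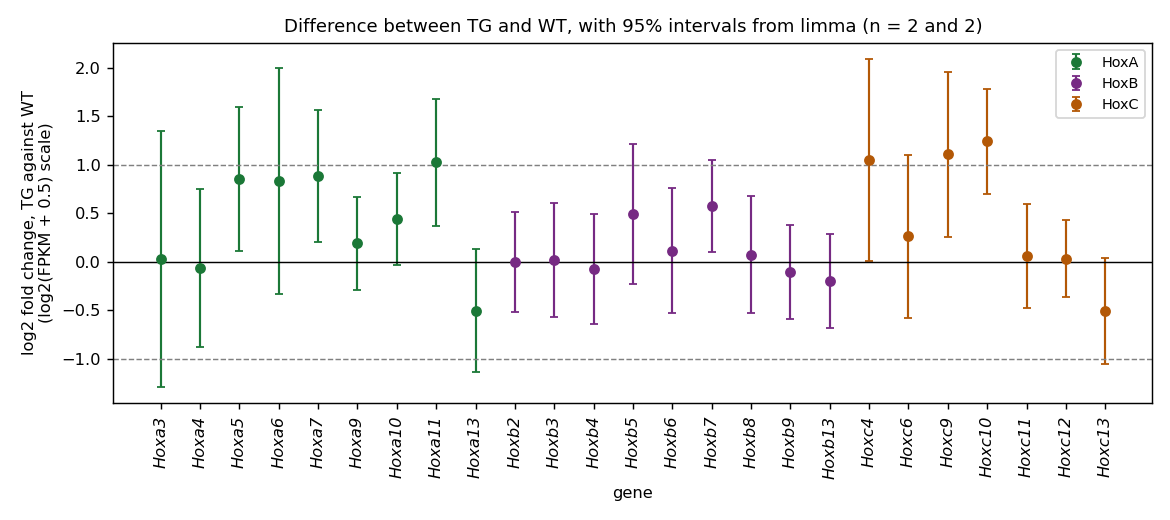
Log2 fold change of TG against WT on the log2(FPKM + 0.5) scale for 25 expressed *Hox* genes, coloured by cluster, with 95% intervals from limma (n = 2 in each genotype). Dashed lines mark a log2 fold change of 1 in either direction. The interval of *Hoxc10* runs from 0.70 to 1.79, and 7 intervals lie wholly above 0 and none wholly below.

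The non-coding genes inside the clusters followed the same division. RefSeq places 18 of them there, of which 10 passed the filter. None was called (limma, with 2 at an unadjusted p under 0.05, against 19.6% of all tested genes, and 0 called by voom). All 4 in *HoxB* and both in *HoxC* passed, 4 of 8 in *HoxA* did, and the 4 in *HoxD* were listed at 0. *Hotairm1*, a non-coding transcript of *HoxA*, had 7.11 and 10.5 FPKM in WT and 16.9 and 12.2 in TG (log2 fold change 0.70, limma, adjusted p = 0.154). *Hoxb5os* had 27.5, 15.6, 9.66 and 18.3 FPKM, well above *Hoxb5* itself. *Hotair*, a non-coding RNA of *HoxC* studied for its link to *HoxD* repression, had 1.73, 2.21, 1.82 and 1.40 FPKM. The genotypes overlapped for *Hoxb5os* and *Hotair*. *Hottip*, which lies 1.89 kb beyond *Hoxa13*, had at most 0.215 FPKM.

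The TALE cofactors were all expressed, and none passed the test. All 9 genes of the list passed the filter, and their median log2 fold change was 0.02. None was called in either direction (limma, with 0 at an unadjusted p under 0.05, against 19.6% of all tested genes, and 0 called by voom). *Pbx2* was highest with 17.1 and 17.3 FPKM in WT and 20.5 and 22.1 in TG, followed by *Meis3* with a mean of 10.6 FPKM, *Meis1* with 8.64 and *Meis2* with 8.52.

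Polycomb and trithorax genes, which keep *Hox* genes silent or active, were all expressed. All 42 passed the filter, none was called (limma, with 6 at an unadjusted p under 0.05 and 0 called by voom), and their median log2 fold change was 0.01. The highest were *Rbbp7*, a histone-binding subunit, with a mean of 140 FPKM, *Rad21*, a cohesin subunit in the same list, with 85.3, *Eed*, of Polycomb repressive complex 2, with 78.8, and *Phc2*, of Polycomb repressive complex 1, with 71.0. Of the 6 at an unadjusted p under 0.05, *Phc2* and *Phf19* had log2 fold changes of 0.40 and 0.64 (limma, adjusted p = 0.236 and 0.254). The other 4 were negative, with log2 fold changes of -0.62 for *Pcgf3*, -0.67 for *Kmt2b*, -0.67 for *Kmt2a* and -0.56 for *Kdm6b* (limma, adjusted p = 0.0963, 0.133, 0.184 and 0.250). Over all tested genes, 19.6% passed that level.

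Regulators that set up the *Hox* pattern in the tail bud were mostly at or near 0. Of 22 genes, 4 passed the filter and 12 were listed at 0. None was called (limma, with 1 at an unadjusted p under 0.05, against 19.6% of all tested genes, and 0 called by voom). The retinoic acid receptors *Rarg* and *Rara* had means of 46.2 and 16.5 FPKM, *Gdf11*, a signal for the trunk-to-tail switch, 9.73 FPKM, and *Nr6a1*, a regulator of trunk length, 0.657 FPKM.

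The other positional transcription factors were expressed in part. Of 63 genes, 32 passed the filter and 17 were listed at 0. An unadjusted p under 0.05 was found for 11, against 19.6% of all tested genes. Voom called 3, where it called 123 higher and 149 lower of all tested genes. By limma, 1 was called higher and 0 lower. The 1 call became 0 without WT 1 and 0 without WT 2. Their median log2 fold change was 0.25. *Tbx18*, a gene of mesenchyme, had 11.2 and 14.2 FPKM in WT and 4.09 and 6.54 in TG (log2 fold change -1.21, limma, adjusted p = 0.0289). *Irx3*, of the Iroquois family, had 2.05 and 1.30 FPKM in WT and 4.39 and 6.21 in TG (log2 fold change 1.42, limma, adjusted p = 0.0290). Both were chosen after their values were seen. *Irx1*, of the same family as *Irx3*, led with a mean of 53.6 FPKM, followed by the mesenchyme genes *Prrx2* with 47.3, *Twist2* with 44.3 and *Twist1* with 21.1. The hindlimb genes *Tbx4* and *Pitx1*, chosen after their values were seen, were listed at 0 in all libraries, and *Tbx5*, of the forelimb, was at 0.111 FPKM in WT 1 and 0 in the others.

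The nearest listed genes on either side of the clusters, 3 per side and 24 in all, included 12 that passed the filter, and none was called by limma. At an unadjusted p under 0.05 there were 3, against 19.6% of all tested genes, and voom called 1, *Atp5g1*. The highest was *Rps6-ps4*, a pseudogene 426 kb beyond *HoxD* with a mean of 953 FPKM, whose reads may be shared with its parent gene. *Cbx5*, a heterochromatin gene beyond *HoxC*, had a mean of 42.2 FPKM, and *Skap2*, next to *HoxA*, 22.1 FPKM. *Atp5g1*, a mitochondrial gene 119 kb from *Hoxb13*, had 26.0 and 14.4 FPKM in WT and 47.8 and 47.1 in TG (log2 fold change 1.27, limma, adjusted p = 0.0216). *Hoxb13* itself had a log2 fold change of -0.20.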

How the data were processed

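RNA-seq was done by the authors on 2 WT and 2 TG libraries of polyadenylated RNA. Strand-marked, random-primed cDNA was sequenced in paired-end mode, the reads were aligned with Rsubread to mm10 and counted per gene, and the deposited values are FPKM, made by the authors from those counts. The strand setting of the counting is not given in the sources used here. Libraries were grouped by their labels.

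Whole reads were recovered from the ratios of FPKM between libraries for 100% of the 15530 genes above 0, with totals of 9465712, 14639946, 11923758 and 11063020 reads in WT 1, WT 2, TG 1 and TG 2. The ratios leave a whole factor common to all totals open. Factor 2 was taken, where 29 sampled genes shared 1 shortfall from the annotated exonic length, against 19 at factor 6 and 16 at factor 4. For some genes the reads are known only up to a further whole factor. The recovered reads summed to 99.81%, 99.68%, 100.11% and 100.15% of the totals in WT 1, WT 2, TG 1 and TG 2. A sum above the total means that the reads of some genes were not recovered exactly. Gene positions and promoters came from RefSeq on GRCm38.p6, with all 39 *Hox* symbols matched, and exon overlaps from GENCODE.

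TG was compared with WT by limma 3.58.1 (variance trend) in R 4.3.3 on log2(FPKM + 0.5) over all 11524 genes with a mean of at least 0.5 FPKM, with Benjamini-Hochberg adjustment. Fold changes on this scale understate those of low genes. Genes with an adjusted p under 0.01 were called where the log2 fold change was 1 or more in either direction. The code was tested on simulated data. No set test was run. The *Hox* genes were named, and of each list the called genes and up to 4 with the highest means. Some items are not reported here. Other genes were chosen after their values were seen. The *Hox* set and the lists were chosen with earlier results of these data known. Alternatives were other pseudocounts, filters, scalings and thresholds, no variance trend, a replicate block, each library left out in turn, and voom on the recovered reads.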

Additional observations from a re-analysis of the deposited data

How the results depend on the processing

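The count of 26 expressed *Hox* genes was 23 at a mean of at least 1 FPKM, 30 at 0.1 FPKM and 24 with at least 0.5 FPKM in every library of a genotype. No *Hox* gene was called under any alternative except an adjusted p under 0.05, which called 1, *Hoxc10*. The lists' 1 called gene became 0 with all genes above 0, 0 without the variance trend, 4 with voom, 4 at an adjusted p under 0.05, and 0 to 1 with a library left out. With all genes above 0, calls over all genes fell from 70 higher and 54 lower to 0 and 1, and without the trend to 3 and 6. They were 123 and 149 with voom, 229 and 121 at an adjusted p under 0.05, 0 and 1 without WT 1, and 7 and 2 without WT 2. With 1 library left out, the lone library is assumed to vary like the other genotype.

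With the replicate number as a block (replicate block), 0 *Hox* genes and 0 list genes were called, and 12 genes higher and 8 lower overall. Deviations of same-numbered libraries had a correlation of -0.03. With so few libraries this cannot decide whether same-numbered libraries were paired, and the labels do not say.

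Of 322 recomputed log2 fold changes of *Hox* genes, 285 kept their direction, and 37, in 12 genes, changed sign. No *Hox* gene was called in any of these fits. The size was not always kept on the same side of 1. It ranged from 0.63 to 1.43 for *Hoxa11*, 0.67 to 1.55 for *Hoxc9*, 0.67 to 1.10 for *Hoxa7* and 0.61 to 1.11 for *Hoxa5*. For *Hoxc10* it stayed above 1. Values for *Hoxa3* were -0.31 with a pseudocount of 0.1, -0.0071 with upper-quartile scaling, -0.028 with quantile normalization and -0.82 with voom. By upper-quartile scaling, quantile normalization and voom, *Hoxb2* had -0.062, -0.072 and -0.048, *Hoxb3* -0.043, -0.045 and -0.062, *Hoxc11* -0.0065, -0.0037 and -0.031, and *Hoxc12* -0.036, -0.047 and -0.034. By voom, *Hoxb6* had -0.00095 and *Hoxb8* -0.028. With a library left out, the ranges were -0.82 to 0.89 for *Hoxa3*, -0.29 to 0.16 for *Hoxa4*, -0.16 to 0.16 for *Hoxb2*, -0.29 to 0.33 for *Hoxb3*, -0.30 to 0.15 for *Hoxb4*, -0.26 to 0.49 for *Hoxb6*, -0.24 to 0.38 for *Hoxb8*, -0.40 to 0.19 for *Hoxb9*, -0.49 to 0.10 for *Hoxb13*, -0.095 to 0.62 for *Hoxc6*, -0.21 to 0.33 for *Hoxc11* and -0.052 to 0.11 for *Hoxc12*. The median log2 fold change of the *Hox* genes was 0.15, but 0.09 with upper-quartile scaling, 0.06 with quantile normalization, 0.05 with voom, 0.11 without WT 1, 0.37 without WT 2, 0.24 without TG 1 and 0.28 without TG 2. The cause of these moves was not tested. Genes under about 1 FPKM rest on few reads, which limits what can be said of *HoxD*.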
